A study of Arabidopsis thaliana with 6 samples.

Results

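MGD2, MGD3 and SQD1 are nuclear genes for enzymes that make membrane lipids without phosphorus, and all 3 were listed as lower in Arabidopsis thaliana seedlings labelled as an epl1a epl1b double mutant. They were chosen by locus (AT5G20410, AT2G11810 and AT4G33030) from 2 deposited tables of 5330 genes, 33.9% of them lower and 66.1% higher, which all had a log2 fold change of 1 or more in size and a false discovery rate below 0.05. The groups were wild type Col-0 and the line labelled epl1a epl1b in the Columbia-0 background, each with 3 libraries of whole seedlings from 3 independent experiments. The labels give no allele, transgene or clone for the line, which is described as a double mutant. EPL1A and EPL1B encode Enhancer of Polycomb proteins of NuA4, a complex that acetylates histone H4. All seedlings were 14 days old and came from plates of diluted Murashige and Skoog medium with 1% sucrose at 22 °C, in days of 16 h light and 8 h dark. They were harvested 8 h after dawn. The labels also give 3 days of stratification at 4 °C and light of 100 µmol for all samples. Because the 3 genes stand in the tables for their difference between the groups, that difference is described here and not tested again.

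Plants save phosphate by replacing phospholipids with galactolipids and sulfolipids when phosphate is scarce. MGD2 and MGD3 transfer galactose to diacylglycerol to make monogalactosyldiacylglycerol in the outer chloroplast envelope, a supply that is known for its induction in phosphate-starved roots and other non-green tissue, whereas MGD1 makes the bulk of this lipid for thylakoids. SQD1 makes UDP-sulfoquinovose, the head group donor from which SQD2 builds the sulfolipid of plastid membranes. The transcription factor PHR1 activates many genes of the phosphate starvation response by binding a short palindromic element, the P1BS motif.

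The starts of the 3 genes are shown because they differ in that motif, written GNATATNC and read alike on both strands. Each window runs from 100 bases before the annotated gene start to 30 bases after it, in TAIR10.1 coordinates, with matches in capitals. The windows are chr5:6896363-6896492 for MGD2, chr2:4743062-4743191 for MGD3 and chr4:15935273-15935402 for SQD1, all on the plus strand.
MGD2: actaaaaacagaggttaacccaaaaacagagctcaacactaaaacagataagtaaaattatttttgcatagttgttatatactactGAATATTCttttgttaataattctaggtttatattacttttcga
MGD3: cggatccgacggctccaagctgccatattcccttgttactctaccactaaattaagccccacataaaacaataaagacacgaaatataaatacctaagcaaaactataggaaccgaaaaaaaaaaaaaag
SQD1: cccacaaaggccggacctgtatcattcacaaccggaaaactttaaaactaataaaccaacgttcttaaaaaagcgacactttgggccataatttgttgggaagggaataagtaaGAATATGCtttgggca

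MGD2 held the match GAATATTC at positions -14 to -7 before the start, where +1 is the first annotated base. A second GAATATTC lay at 38 to 45 in its transcribed part, and GGATATAC lay at -501 to -494. SQD1 held GAATATGC at 15 to 22, inside its transcribed part. In MGD3 these letters were not in the window from 1000 bases before the start to 50 bases after it. Of 27443 nuclear protein-coding genes, 2.54% held a match in the 130-base window, 6.25% from 250 bases before to 50 after the start, and 20.9% from 1000 before to 50 after.

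The genes are single loci. MGD2 lies on chromosome 5 (6896463 to 6898783, 6 exons), MGD3 on chromosome 2 (4743162 to 4746813, 8 exons in its transcript with the longest coding sequence, 4 annotated transcripts) and SQD1 on chromosome 4 (15935373 to 15937833, 3 exons). The coding sequences of MGD2 and MGD3 were 72.7% identical over 1367 aligned bases, against 65.7% between MGD1 and MGD2. No stretch of 50 bases from the annotated transcripts of MGD2, MGD3 or SQD1 occurred elsewhere in the nuclear genome by exact match, nor in the transcripts of the other MGD genes. Sequenced reads were 50 bases long, so exact reads of these genes had a single place in the nuclear genome.

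Reads in the listed genes summed to between 7355421 and 10938542 per library, which is not the library depth. Levels are given as normalised reads, which are reads divided by a factor set to 1 in Col-0 replicate 1. The genes in the label did not both follow it: EPL1A had 360 to 378.1 normalised reads in Col-0 and 121.5 to 128.1 in the other group, whereas EPL1B had 653.9 to 761.6 in Col-0 and 16995 to 17128 in the other. The libraries are therefore called epl1ab-labelled, and each direction given here is one between labels. Embryo and seed genes also set the libraries apart, where 12.3% of nuclear protein-coding genes were listed higher: 14 of 15 markers were listed higher, 0 lower, with a summed level of 43.9 to 401 normalised reads in Col-0, where LEC1 was at 0, and 1131, 198520 and 291147 in epl1ab-labelled replicates 1, 2 and 3. Flower markers (5 of 6 listed higher) summed to 118.3 to 132 and 599.9 to 859.4 normalised reads, and root markers (3 of 11 listed higher) to 45.1 to 82.96 and 141.1 to 174.6, in Col-0 and epl1ab-labelled libraries. Tissue markers other than these were not analysed here. In whole seedlings, fewer cells of a type and less RNA per cell cannot be told apart.

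MGD2 had 516, 504.9 and 857.7 normalised reads in Col-0 replicates 1, 2 and 3, and 112.5, 65.6 and 72.8 in epl1ab-labelled replicates 1, 2 and 3. The lowest Col-0 library lay 4.49-fold above the highest epl1ab-labelled one, so the groups did not overlap. That was so for 99.9% of the 1806 genes listed lower, or 33.9% of all listed genes, so it does not set MGD2 apart. The mean went from 626.2 ± 200.6 to 83.6 ± 25.3 (SD, n = 3 per group), 13.4% of the Col-0 level. The log2 fold change was -2.90 ± 0.30 (SE, edgeR), and the authors' deposited table gives -2.91 with a false discovery rate of 3.77e-27.

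MGD3, the other galactolipid gene, had the largest difference of the 3. It had 240, 226.7 and 490.5 normalised reads in Col-0 replicates 1 to 3 and 35.5, 23.1 and 21.8 in epl1ab-labelled replicates 1 to 3. Again no library of one group reached the other, with a gap of 6.39-fold between the nearest libraries. The mean went from 319.0 ± 148.6 to 26.8 ± 7.56 (SD, n = 3 per group), 8.40% of the Col-0 level and a log2 fold change of -3.56 ± 0.38 (SE, edgeR). The authors' deposited table gives MGD3 a log2 fold change of -3.57 with a false discovery rate of 4.60e-23. Its epl1ab-labelled counts were 41, 24 and 26 reads, and the 95% exact Poisson interval of the 24 reads was 15.4 to 35.7, which covers counting error only.

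SQD1, the sulfolipid gene, had the smallest difference of the 3. Its levels were 12385, 11318 and 14677 normalised reads in Col-0 replicates 1 to 3 and 3176, 2788 and 2820 in epl1ab-labelled replicates 1 to 3. The lowest Col-0 library stood 3.56-fold above the highest epl1ab-labelled one. The mean went from 12793 ± 1717 to 2928 ± 215.2 (SD, n = 3 per group), 22.9% of the Col-0 level, with a log2 fold change of -2.13 ± 0.12 (SE, edgeR). The authors' deposited table gives -2.13 and lists its false discovery rate at 0.

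**Figure D1:**
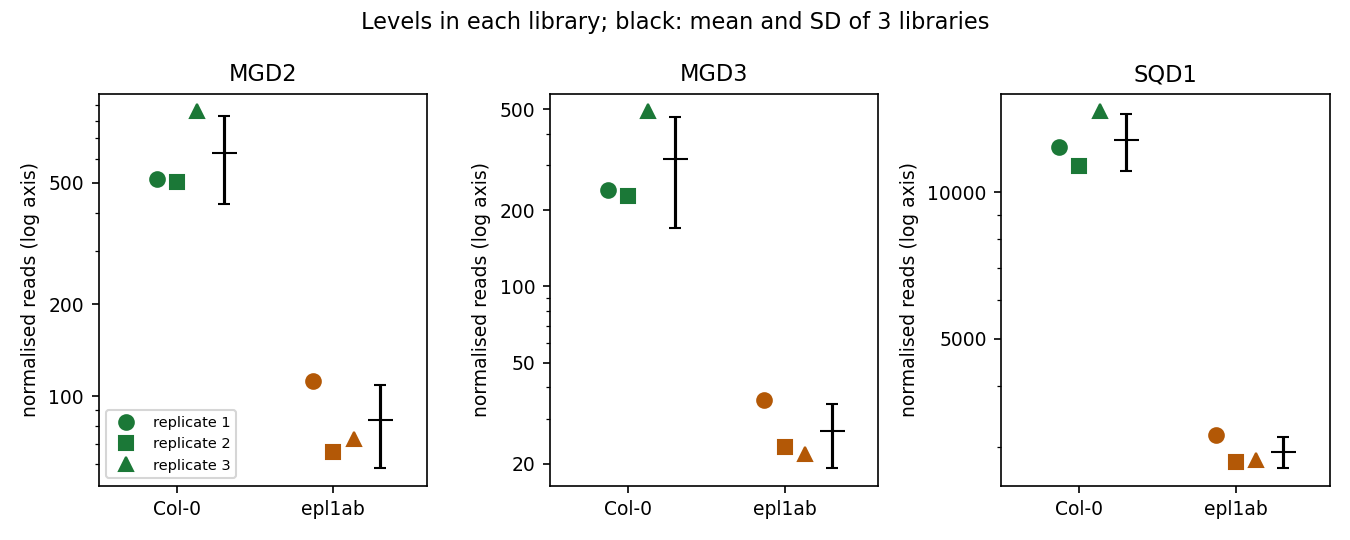
Normalised reads (log axis) of MGD2, MGD3 and SQD1 in each of the 6 libraries, with the mean and SD of 3 libraries in black and replicates by marker shape. The groups do not overlap for any of the 3 genes, Col-0 replicate 3 is the highest Col-0 library and epl1ab-labelled replicate 1 the highest of its group for each.

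The sizes of the changes depend on how the libraries are scaled, while their direction did not under any scaling tried. With DESeq2 size factors of the listed genes the edgeR log2 fold changes were -3.98 for MGD2, -4.64 for MGD3 and -3.22 for SQD1, and with the sum of listed reads they were -2.19, -2.86 and -1.43. The summed seed markers were lowest in epl1ab-labelled replicate 1 of its group, at 1131 normalised reads, and with this replicate as the only library of its group the log2 fold changes were -2.47 for MGD2, -3.16 for MGD3 and -2.01 for SQD1. The part of the seed, flower and root markers in these differences was not tested.

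Per kilobase of annotated exon, the order of the 3 genes was the same in every library. In Col-0, SQD1 had 6701 ± 899.2 normalised reads per kilobase, MGD2 327.7 ± 105.0 and MGD3 165.6 ± 77.2 (SD, n = 3). In the epl1ab-labelled libraries SQD1 had 1534 ± 112.7, MGD2 43.8 ± 13.2 and MGD3 13.9 ± 3.92 (SD, n = 3). The ranges of MGD2 and MGD3 per kilobase, 264.2 to 448.8 and 117.7 to 254.6, came near each other in Col-0 but did not overlap.

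The ratio of MGD3 to MGD2 also differed between the groups. Ratios within a library are free of the scaling between libraries. MGD3 reads were 46.5%, 44.9% and 57.2% of MGD2 reads in Col-0 replicates 1 to 3, and 31.5%, 35.3% and 29.9% in epl1ab-labelled replicates 1 to 3. The mean log2 ratio of MGD3 to MGD2 was lower by 0.61 in the epl1ab-labelled libraries, at -1.64 ± 0.12 against -1.02 ± 0.19 (SD, n = 3 per group), and the groups did not overlap. The epl1ab-labelled ratios rest on 41, 24 and 26 MGD3 reads and 130, 68 and 87 MGD2 reads. The 95% exact Poisson interval of the 24 reads alone was 15.4 to 35.7. Whether the gap between the groups exceeds counting error was not tested. Both galactolipid genes also made up a lower share of SQD1 reads. MGD2 reads were 4.17% to 5.84% of SQD1 reads in Col-0 and 2.35% to 3.54% in the epl1ab-labelled libraries. For MGD3 the shares were 1.94% to 3.34% and 0.772% to 1.12%. These differences were read from the contrast that put the genes in the tables and carry no test.

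Among other genes of lipid remodelling, those in the tables were mostly listed lower. Of 25 genes in the lists for galactolipid synthesis, sulfolipid synthesis and phospholipid breakdown, the authors listed 14 as lower and 1 as higher, against 6.31% of nuclear protein-coding genes listed lower and 12.3% listed higher. Without MGD2, MGD3 and SQD1 the counts were 11 lower and 1 higher of 22, and the other 10 were not in the tables. All gene lists used here were chosen with earlier results of these data known, so their counts are a description. The background holds every annotated nuclear protein-coding gene, whether expressed or not. The median log2 fold change of the 12 other listed genes in the authors' deposited table was -1.77, and that of their 11 lower members -1.79, beside -1.45 for all genes listed lower. edgeR called all 4773 genes it fitted (100.0%), of which 36.9% were lower, so its calls add nothing to the listing. With DESeq2 size factors of the listed genes it called 1530 higher and 1785 lower, in place of 3012 and 1761.

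All 3 sulfolipid genes were listed lower. SQD2, the transferase that completes the sulfolipid, had a mean of 6701 ± 983.0 normalised reads in Col-0 and 1118 ± 220.2 in the epl1ab-labelled libraries (SD, n = 3 each), and its edgeR log2 fold change was -2.58 ± 0.17 (SE). UGP3, the plastid UDP-glucose pyrophosphorylase that supplies SQD1, had means of 10064 ± 582.6 and 2920 ± 406.0, and an edgeR log2 fold change of -1.79 ± 0.11 (SE). Of 5 galactolipid genes MGD2, MGD3 and DGD1 were listed lower. DGD1, which adds the second galactose for the bulk of digalactosyldiacylglycerol, had a log2 fold change of -1.03 ± 0.09 (SE, edgeR), just inside the authors' threshold. MGD1 and DGD2 were not in the tables and are not analysed here.

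Of 17 genes that break down phospholipids, 8 were listed lower and 1 higher. PECP1 (AT1G17710), a phosphatase for phosphoethanolamine and phosphocholine, had the lowest fold change of the group: its mean was 573.9 ± 155.3 normalised reads in Col-0 and 41.5 ± 12.1 in the epl1ab-labelled libraries (SD, n = 3 each), and its edgeR log2 fold change -3.78 ± 0.29 (SE). GDPD1, a glycerophosphodiester phosphodiesterase, had means of 4100 ± 1109 and 508.6 ± 92.9, and an edgeR log2 fold change of -3.01 ± 0.23 (SE). PLDZ2, a phospholipase D of the phosphate response, had means of 564.8 ± 127.3 and 105.5 ± 27.6, and an edgeR log2 fold change of -2.42 ± 0.24 (SE).

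The remaining lower members were PS2, a phosphatase related to PECP1, at a log2 fold change of -1.94, the phosphodiesterases GDPD5, GDPD6 and GDPD3 at -1.76, -1.44 and -1.16, and the phospholipase C gene NPC2 at -1.45 (edgeR). PS2 varied 3.43-fold among the Col-0 libraries, from 378.1 to 1297 normalised reads, and the SE of its log2 fold change was 0.40. Its lowest Col-0 library lay 1.70-fold above the highest epl1ab-labelled one. GDPD6 had 21.5 to 29.3 normalised reads in Col-0 and 6.75 to 10.4 in the other group, so its value rests on few reads. NPC3, of the same phospholipase C family as NPC2, was listed higher, with 760.7 ± 56.0 and 1685 ± 252.9 normalised reads (SD, n = 3 per group) and a log2 fold change of 1.15 ± 0.13 (SE, edgeR). With DESeq2 size factors of the listed genes that value was 0.03 (edgeR adjusted p = 0.861). Those factors come from genes selected for their change and shift every log2 fold change by -1.11. The value of 0.03 therefore cannot decide whether NPC3 differed.

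Around this group, the plastid route of lipid assembly and the phosphate response differed in their spread. Of 10 genes for plastid glycerolipid assembly and desaturation, 5 were listed lower and 0 higher, all from -1.96 up to the threshold in the authors' deposited table. FAD8 and FAD6, desaturases of plastid lipids, had log2 fold changes of -1.96 ± 0.13 and -1.55 ± 0.08 (SE, edgeR), and ATS2, a plastid acyltransferase for lysophosphatidic acid, -1.37 ± 0.07. None of the 5 TGD genes for lipid import into the plastid was in the tables. Of 26 genes for phosphate signalling and uptake, 8 were listed lower and 3 higher. That list includes the non-coding RNA genes IPS1 and AT4, which a background of protein-coding genes leaves out. Of nuclear protein-coding genes, 6.31% were listed lower and 12.3% higher, so the count of higher genes is near that of the background.

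Among the phosphate genes, the non-coding RNA IPS1 had 637 to 1352 normalised reads in Col-0 and 7.72 to 39.8 in the epl1ab-labelled libraries (log2 fold change -5.53 ± 0.66 SE, edgeR). SPX1 and SPX3, inhibitors of the phosphate response, had log2 fold changes of -3.07 ± 0.20 and -2.90 ± 0.39 (SE, edgeR). SPX3 had 19, 12 and 11 reads in epl1ab-labelled replicates 1 to 3, so its value rests on few reads. The secreted ribonuclease gene RNS1 was on the other side at 2.61 ± 0.27, as was the acid phosphatase gene PAP10 at 1.06 ± 0.10 (SE, edgeR). With DESeq2 size factors of the listed genes PAP10 was at -0.05 (edgeR adjusted p = 0.730), a value that carries their shift of -1.11. PHT1;3, a phosphate transporter, had 2 reads over the Col-0 libraries and 11, 6 and 8 in the epl1ab-labelled ones. It shares near-identical copies with neighbouring transporter genes, so its count is uncertain.

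**Figure D2:**
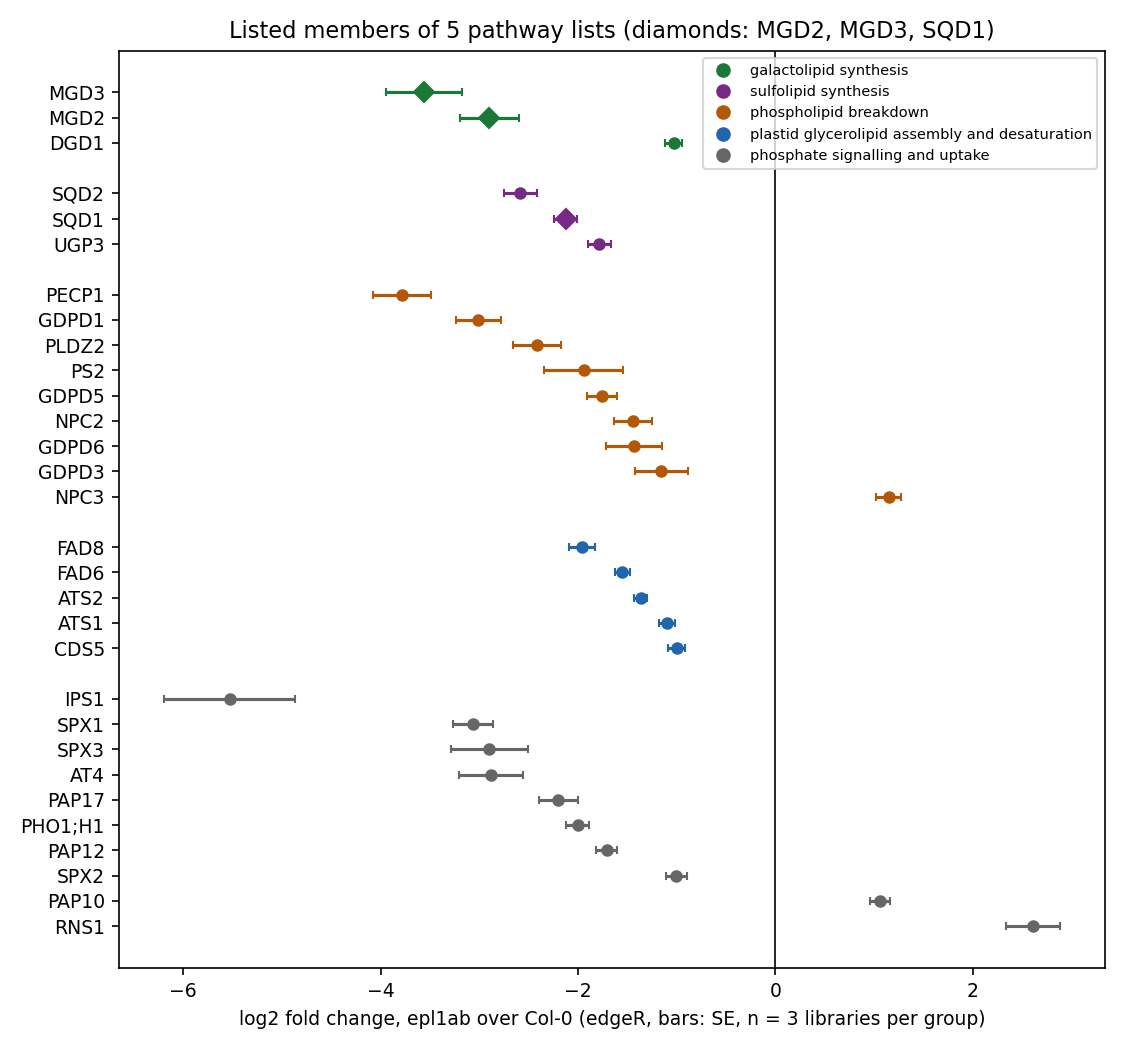
Log2 fold changes of epl1ab-labelled over Col-0 libraries (edgeR, bars are SE, n = 3 libraries per group) for the fitted members of 5 pathway lists, with MGD2, MGD3 and SQD1 as diamonds. MGD3 and MGD2 lie at -3.56 and -2.90, below DGD1 at -1.03, and NPC3, PAP10 and RNS1 lie above 0.

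The 3 genes also shared how they varied among libraries of 1 genotype, a pattern that played no part in their choice and was looked at after their values were seen. In each of MGD2, MGD3 and SQD1, Col-0 replicate 3 was the highest Col-0 library, replicate 2 the lowest, and epl1ab-labelled replicate 1 the highest of its group. Parts of this order lie within counting error. The 95% exact Poisson intervals of Col-0 replicates 1 and 2 overlapped for MGD2 (472.4 to 562.5 and 460.2 to 552.6 normalised reads). They also overlapped for MGD3 (210.6 to 272.4 and 197.1 to 259.4), but not for SQD1. For MGD3, epl1ab-labelled replicate 1 (25.5 to 48.1) overlapped replicates 2 (14.8 to 34.4) and 3 (14.2 to 31.9). The highest Col-0 library was 1.70-fold, 2.16-fold and 1.30-fold above the lowest for MGD2, MGD3 and SQD1. For genes listed lower with a Col-0 mean of at least 100 normalised reads, 1555 in all, the median of this spread was 1.11-fold.

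The parts of this order differed in how common they were. Among those 1555 genes, 73.8% were highest in epl1ab-labelled replicate 1 of their group, so that trait is common to most genes listed lower. Col-0 replicate 3 was the highest Col-0 library for 21.5%, and 5.08% showed the whole order of the 3 genes. Of the 10 other lipid remodelling genes above that level, 8 were highest in Col-0 replicate 3 and 4 showed the whole order. The phosphate signalling list had 7 of 7 genes highest in Col-0 replicate 3, and 5 with the whole order. In the plastid lipid assembly list 0 of 5 were highest there. With DESeq2 size factors of the listed genes the whole order held for 2 of the 3 genes and for 2.77% of the 1555. These counts are a description, since the libraries are shared by all genes and replicates were not matched across genotypes by the labels.

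**Figure D3:**
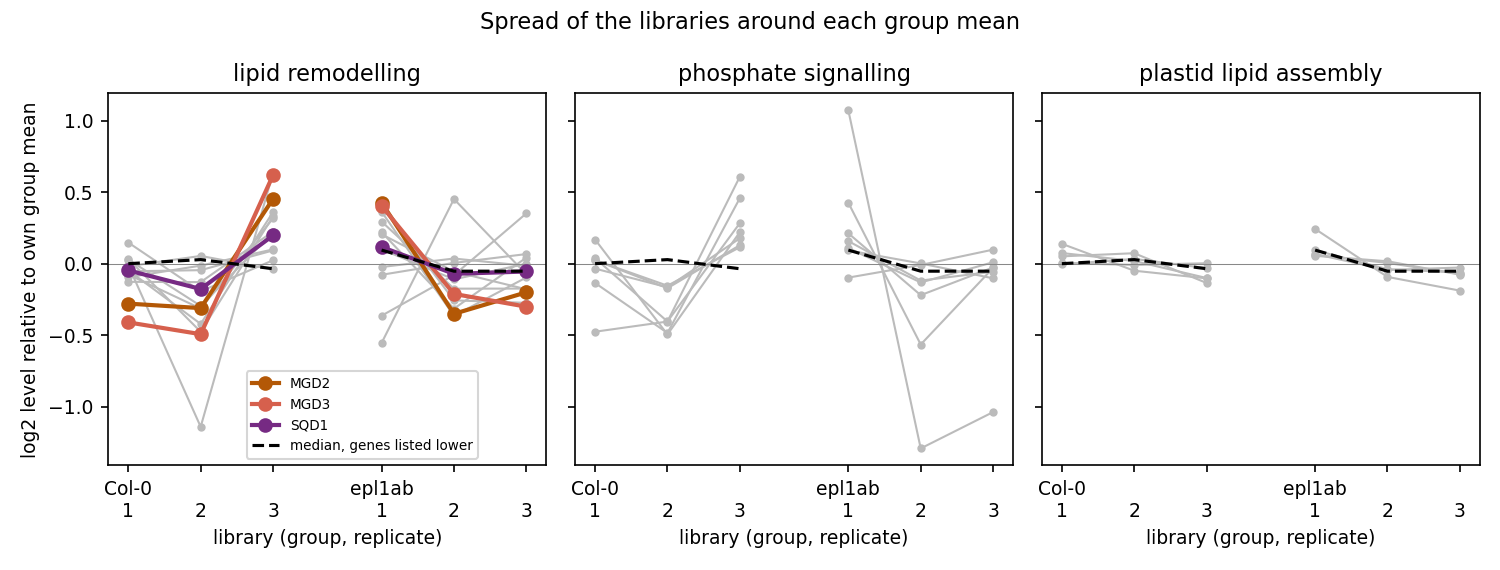
Log2 level of each gene relative to its own group mean, by library, for listed lower genes of the 3 lipid remodelling lists (left), phosphate signalling (middle) and plastid lipid assembly (right). GDPD6 and SPX3 are left out, since their Col-0 means were below 100 normalised reads. MGD2, MGD3 and SQD1 are coloured, other list genes are grey, and the dashed line is the median of 1555 genes listed lower, which stays between -0.05 and 0.10 while MGD2, MGD3 and SQD1 peak in Col-0 replicate 3.

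Likeness of profile was measured as the root mean square difference of log2(normalised reads + 1) over the 6 libraries, each gene centred on its Col-0 mean. A low value means changes of like size, but the order of libraries within a group can still differ. Among the 4770 other genes in the edgeR fit, those nearest to MGD2 were the non-coding RNA gene AT4 (0.15), GDPD1 (0.19) and SPX1 (0.23), in log2 units. Nearest to MGD3 were EDS1B (0.21), AT1G17710, which is PECP1 (0.30), and AT5G20790 (0.30). EDS1B had 53, 36 and 63 reads in the Col-0 libraries and has a near-identical neighbour, so its place is uncertain. SQD1 was nearest to PHO1-H1, a relative of the phosphate exporter PHO1 (0.10), AT1G70900 (0.10) and AT1G56520 (0.10). Of these, PHO1-H1 had the same highest and lowest libraries as SQD1 in both groups. AT1G70900 was highest in epl1ab-labelled replicate 3 of its group, where SQD1 was highest in replicate 1. AT1G56520 was lowest in Col-0 replicate 1, where SQD1 was lowest in replicate 2. The distance between MGD2 and MGD3 was 0.43, and those of MGD2 and MGD3 to SQD1 were 0.59 and 1.00.

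The P1BS motif was then counted in the members of each list that were listed lower. From 250 bases before to 50 after the gene start it was found in 2 of 3 listed lower galactolipid genes (MGD2 and DGD1), 1 of 3 sulfolipid genes (SQD1), 5 of 8 phospholipid breakdown genes, 4 of 8 phosphate signalling genes and 1 of 5 plastid lipid assembly genes. AT4, among the 4 phosphate signalling genes, makes a non-coding RNA and is not part of the protein-coding background. The share was 6.25% among all nuclear protein-coding genes, 7.74% among those listed lower and 6.54% among those listed higher. Over all members of the lists, in the tables or not, it was found in 3 of 5 galactolipid, 1 of 3 sulfolipid and 8 of 17 phospholipid breakdown genes. For phosphate signalling and plastid lipid assembly the counts over all members were 8 of 26 and 1 of 10. In the longer window of 1000 bases before to 50 after the start, SQD2, with GAATATTC at -340 to -333, and PECP1, with the same letters at -757 to -750 and -362 to -355, also held matches. Matches were not limited to genes listed lower. RNS1, listed higher, held one at 20 to 27, and PHT1;3, also listed higher, one at -393 to -386. MGD1, which was not in the tables, held GAATATTC at 26 to 33.

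**Figure D4:**
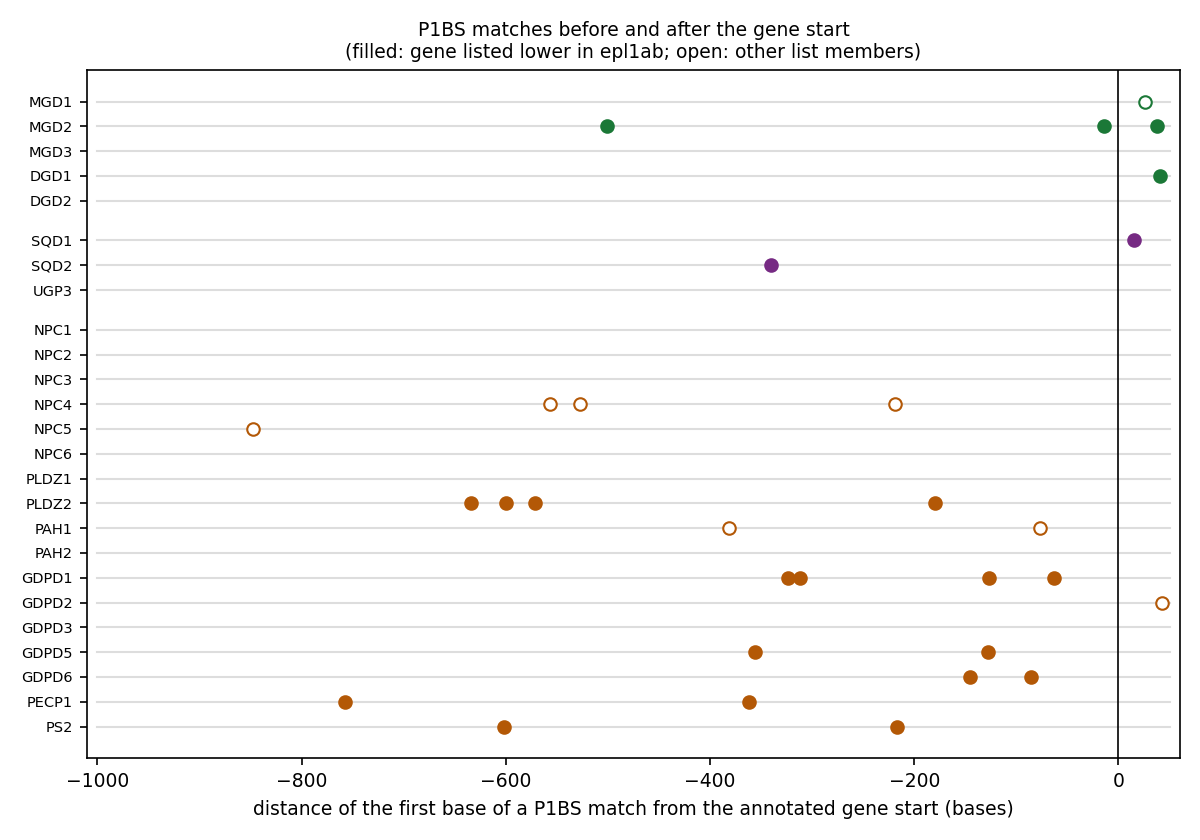
Distance in bases of each P1BS match from the annotated gene start, for the 25 genes of the 3 lipid remodelling lists, in the window from 1000 bases before to 50 after the start. Filled points are genes listed lower in the epl1ab-labelled libraries and open points are other list members; MGD2 holds 3 matches, SQD1 holds 1 and MGD3 holds 0.

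Both MGD2 and SQD1 have a listed neighbour on the chromosome. CLSY2 (AT5G20420), a chromatin remodelling protein of RNA-directed DNA methylation, ends 6 bases after MGD2 on the opposite strand. It had 162, 134.3 and 106.1 normalised reads in Col-0 replicates 1 to 3 and 7.79, 7.72 and 15.9 in epl1ab-labelled replicates 1 to 3 (log2 fold change -3.65 ± 0.33 SE, edgeR). Unlike MGD2, it was lowest among Col-0 libraries in replicate 3. The annotated genes do not overlap, and the sources used here do not say whether the authors counted by strand. ZIP9 (AT4G33020), a metal transporter gene that begins 610 bases before SQD1 and is read the other way, was listed higher, with 2.15 to 7.32 normalised reads in Col-0 and 17.6 to 21.6 in the epl1ab-labelled libraries. The genes next to MGD3 are annotated as pseudogenes and were not in the tables.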

How the data were processed

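Total RNA was depleted of plant ribosomal RNA, made into libraries with a stranded kit and read as 50-base single ends, per the labels' protocols. The submitters' processing notes name TAIR10 and DESeq2, without a version; aligner and counter: not given in the sources used here. Per the file headers, the authors deposited raw read counts per gene and library, a log2 fold change of epl1ab over Col-0, its p-value and its false discovery rate. IDs of 14 rows that were repeated or did not match the annotation at their position were reassigned by position; 98.6% of 5297 matched nuclear genes had the start and end of the TAIR10.1 annotation.

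The authors' scaling was recovered by least squares from their fold changes over the 1774 genes that had 200 reads or more in each library (median absolute residual 0.00029 log2), since the tables hold selected genes. Factors were 1, 0.931 and 0.820 for Col-0 and 1.16, 1.04 and 1.20 for epl1ab-labelled replicates 1 to 3. Counts were fitted by the quasi-likelihood method of edgeR 4.0.16 in R 4.3.3, without a replicate block. Adjusted p-values are Benjamini-Hochberg values over the 4773 genes kept by its filter, among them MGD2, MGD3 and SQD1. DESeq2 1.42.0 was an alternative. A standard error is the size of the log2 fold change divided by the root of its F statistic. The edgeR step was tested on simulated data. It recovered 45.0% of 111 changes of log2 size 1 and 100% of 89 changes of log2 size 2, with 4 false calls among 4789 genes fitted. The median error was 0.24 and 0.19 log2 units. Motifs, exon lengths and sequences came from RefSeq's TAIR10.1 genome with Python 3.11.15 and Biopython 1.88.

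Members and gene lists were chosen with earlier results of these data known. Named were all listed genes of the 3 lipid lists, at most the 3 largest changes per direction of other lists, the 3 nearest profiles, listed neighbours and the EPL1 genes. No replicate pair agreed within sampling noise (chi-square over its degrees of freedom at least 13.5). Nothing beyond the design text says how independent the experiments were, so errors measure the spread between these libraries.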

Additional observations from a re-analysis of the deposited data

How the results depend on the processing

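The log2 fold changes of MGD2, MGD3 and SQD1 kept their sign in all 13 alternatives tried for each: 3 other scalings, no filter, DESeq2, a replicate block, each library left out, and epl1ab-labelled replicate 1 alone in its group, where its spread is assumed to be that of Col-0. Leaving out 1 library gave -3.17 to -2.61 for MGD2, -3.82 to -3.12 for MGD3 and -2.21 to -2.02 for SQD1. TMM factors gave -3.35, -4.02 and -2.59. Scalings from the listed genes shift every log2 fold change, by -0.47 with TMM, -1.11 with DESeq2 size factors and 0.69 with sums of reads. With DESeq2 size factors edgeR called 1530 listed genes higher and 1785 lower, against 3012 and 1761. Lipid remodelling genes called lower numbered 14, or 13 with sums of reads (GDPD3 lost) and with replicate 1 alone (GDPD6 lost). The 1 called higher, NPC3, became 0 with DESeq2 size factors, by that shift. With the genomic span as length, the log2 ratio per kilobase of MGD2 over MGD3 in Col-0 moved from 1.03 to 1.68, since MGD3 has the longer introns. The log2 difference of the MGD3 to MGD2 ratio was -0.68 to -0.51 with 1 library left out. Same-numbered replicates did not deviate alike from their group means (correlations -0.28, -0.04 and -0.21). With 3 libraries per group, these values cannot exclude that the samples were paired. The replicate block gave -2.89, -3.50 and -2.12 for MGD2, MGD3 and SQD1. MGD3 had 24 to 41 reads per epl1ab-labelled library, which limits the precision of its level there.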
